A study of Mus musculus with 12 samples.

Results

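This account concerns 284 of 15600 array probes (1.82%) whose ratio lay on the same side on every array that paired a knockout with a wild-type mouse. They were chosen by measured values: after the median of each array was subtracted and every ratio was read as knockout minus wild type, a probe had to lie below 0 on all 6 such arrays, with a mean of the 6 at or below -0.7. The values on those 6 arrays are therefore a description of the choice, and no test that uses them is read as support. The series measured RNA of the kidney inner medulla of mice that lack aquaporin-1 and of wild-type mice. RNA of 6 mice, the wild types WT1, WT2 and WT3 and the knockouts KO1, KO2 and KO3, was amplified and laid in pairs on 12 two-channel arrays. On 6 arrays a WT and a KO mouse were paired, with the WT mouse in channel 1 on 3 of them and the KO mouse in channel 1 on the other 3. The remaining 6 arrays, 3 of WT pairs and 3 of KO pairs, were not used in the choice and serve here as background. The labels give the genotype and a number for each mouse, and they give no strain, sex, age, treatment or knockout construct.

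Aquaporin-1 is a protein pore for water. In the kidney it lies in the proximal tubule, the thin descending limb of Henle's loop and the descending vasa recta, and its loss impairs the concentration of urine in mice. The inner medulla is the deepest zone of the kidney, in which loops of Henle, collecting ducts, vasa recta and interstitial cells lie side by side. Its RNA is a mixture of these cells, so that fewer cells of a type and less RNA per cell cannot be told apart. The deposited table names probes by an identifier only and pairs none with a gene, and 0 of the identifiers matched a symbol, synonym, locus tag or accession in the RefSeq gene table used here. The members are therefore described by identifier, no gene, sequence or role is given for any of them, and the tissue could not be checked against its marker genes.

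In an array's name the mouse in channel 1 comes first. Values are log ratios as deposited, taken as log2 and read as the first-named over the second-named mouse. Neither the base of the logarithm nor the direction of the ratio is given in the sources used here. Were all arrays to run the opposite way, all signs would turn while sizes and counts stayed, so no member is called lower or higher in either genotype in absolute terms. "Negative" below means knockout under wild type in this reading.

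The choice was lopsided. Below 0 on all 6 WT-KO arrays lay 652 probes (4.18%), and 484 had a mean at or below -0.7; both conditions held for the 284 members. The same conditions on the opposite side, above 0 on all 6 with a mean at or above 0.7, held for 50 probes. Between the conditions, 200 probes had a low enough mean but lay above 0 on at least 1 array. Of these, 170 missed by exactly 1 array, which was WT3-KO2 for 84 of them, KO2-WT1 for 30 and KO3-WT2 for 6.

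The median member had a mean of -0.98 over the 6 arrays, the middle 50% lay between -1.25 and -0.82, and the extremes were -2.56 and -0.70. Taken as log2, a size of 0.98 is a ratio of 1.97-fold, and taken as a natural logarithm it is 2.67-fold. Of the 284 members, 133 had a mean at or below -1, 32 at or below -1.5 and 5 at or below -2. The standard deviation (SD) of a member over the 6 arrays had a median of 0.58 and ran from 0.19 to 2.39, against a median of 0.40 over all probes. In 66 members each of the 6 arrays was at or below -0.5, and in 11 each was at or below -1. At the weak end, 53 members had at least 1 array between -0.1 and 0. In 183 members the mean of the 6 arrays stayed at or below -0.7 when the most negative array was dropped.

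The arrays did not contribute alike. The median member stood at -0.95 on WT2-KO1, -0.98 on WT3-KO1 and -0.64 on WT3-KO2, all turned to read knockout minus wild type. With the KO mouse named first it stood at -0.98 on KO2-WT1, -1.46 on KO3-WT2 and -0.95 on KO3-WT1. The mean of these 6 medians was -0.99 ± 0.26 (SD, n = 6 arrays, which share mice). KO3-WT2 was thus the strongest array and WT3-KO2 the weakest. KO3-WT2 held the most negative of the 6 values in 108 members (38%, against 15.9% of all probes) and WT3-KO2 in 11 (3.87%, against 15.8%). The highest of the 6 values, in members the one nearest 0, lay on WT3-KO2 in 83 members (29.2%, against 16.2% of all probes). It lay on KO3-WT2 in 13 (4.58%, against 17.1%). Averaged within each channel order, the median member was -0.87 on the 3 WT-first arrays and -1.12 on the 3 KO-first arrays. On these averages 186 of 284 members (65.5%) were more negative with the KO mouse first, against 48.9% of all probes. These averages differ in mice as well as in channel order, since KO3 was on WT-KO arrays only in channel 1 and WT3 only in channel 1. The fit described below, to all arrays, separates mice from a channel term. That term had a median of 0.14 over the members, against 0.002 over all probes. A positive term makes KO-first arrays less negative, but its sign in the members changed with the arrays used, as given below. How much channel order added to the difference between these averages was not tested. On its 2 arrays KO3 gave a median of -1.19, against -0.88 for the 4 arrays of KO1 and KO2.

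**Figure D1:**
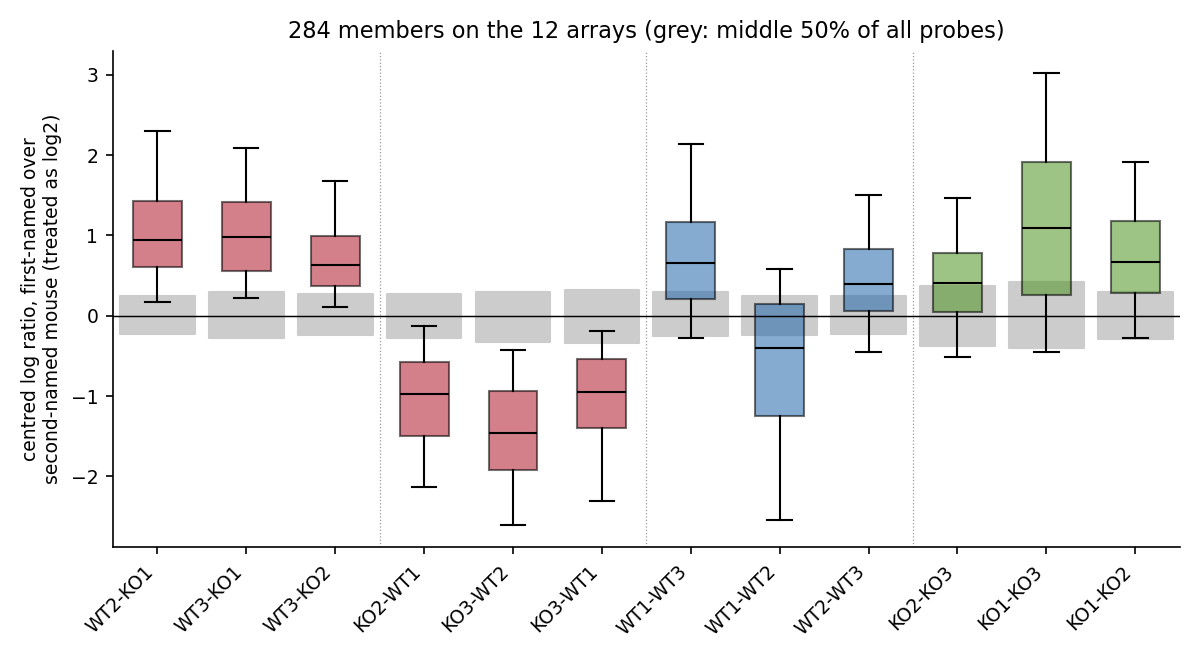
Centred log ratio of the 284 members (vertical axis, first-named over second-named mouse) on each of the 12 arrays (horizontal axis); boxes hold the middle 50% with the median as a line, whiskers reach the 5th and 95th percentiles, and grey bands show the middle 50% of all probes. Red boxes are the WT-KO arrays that defined the members, blue boxes are WT pairs and green boxes KO pairs; medians lie above 0 on each same-genotype array except WT1-WT2 (-0.41).

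The 12 arrays form a closed loop, so each mouse can be given a fitted value, measured from the mean over the 6 mice, together with a term for the channel. The fitted values of the median member were 0.43 in WT1, 0.75 in WT2 and 0.28 in WT3. In the KO mice they were -0.15 in KO1, -0.54 in KO2 and -0.83 in KO3. In this fit KO1 was thus the KO mouse closest to the WT mice and WT3 the WT mouse closest to the KO mice. The arrays differed on the place of KO1. The median member stood at 0.67 on KO1-KO2, with KO1 above KO2. Read as knockout minus wild type it stood at -0.98 on WT3-KO1 and -0.64 on WT3-KO2, with KO1 below KO2. KO3 was the lowest KO mouse in 198 members (69.7%, against 35.6% of all probes), KO2 in 68 (23.9%, against 29.3%) and KO1 in 18 (6.34%, against 35.1%). WT2 was the highest WT mouse in 181 (63.7%, against 32.6%). The rank of WT1 and WT2 depends on the array WT1-WT2, whose direction is not settled: with its sign turned the medians were 0.69 in WT1 and 0.54 in WT2, WT1 was the highest WT mouse in 172 members, and the KO medians were -0.22, -0.50 and -0.83. As deposited, the order KO1 above KO2 above KO3 held in 155 of 284 members (54.6%), against 18.7% of all probes. KO1 lay above the mean of the 6 mice in 93 members although the KO mean was below 0 in each of them. All 3 KO mice lay below all 3 WT mice in 212 members (74.6%) as deposited, where 7.76% of all probes showed the same separation, and in 236 members with WT1-WT2 turned. This separation rests largely on the arrays that chose the members and nothing is read from it. The 50 probes of the opposite side had medians of 0.39 in KO1, 0.34 in KO2 and 0.71 in KO3, and of -0.54, -0.42 and -0.51 in WT1, WT2 and WT3. In limma's test over the 6 fitted mouse values, 0 members passed an adjusted p of 0.05, as did 0% of all probes, and 254 members had an unadjusted p under 0.05, where 9.8% of all probes did, 6.04% on the negative side. That count was 161 without WT3. With WT1-WT2 turned, 2 members passed an adjusted p of 0.05 in this test, where 0.0128% of all probes did. The unadjusted count was then 264 (10.2% of all probes). The rule fixed this contrast, so these counts are printed only for scale and nothing is read from them.

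**Figure D2:**
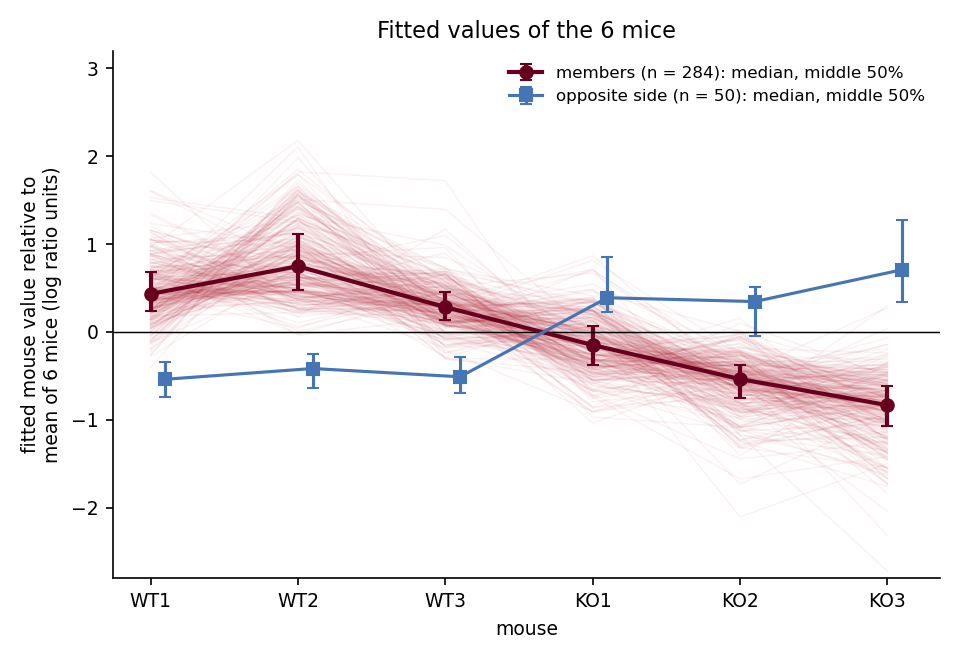
Fitted value of each mouse, measured from the mean over the 6 mice (vertical axis, log ratio units) for the 284 members (thin red lines; dark red points are medians, bars the middle 50%) and for the 50 probes of the opposite side (blue squares and bars). The median member falls from 0.75 in WT2 to -0.83 in KO3, with KO1 at -0.15; the lines join mice that have no order among themselves.

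The 10 members with the largest mean size spanned -2.56 to -1.82 and differed in how the 6 arrays made up the mean. In 2 of them a value on WT3-KO2 carried the mean. H3103H07 read -6.11 on that array and -0.97 to -2.82 on the other 5, and H3113F09 read -7.05 there and -0.61 to -2.38 elsewhere. Without the most negative array the mean of H3103H07 moved from -2.56 to -1.84 and that of H3113F09 from -2.41 to -1.48, so both stayed under the threshold.

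In others of the 10 the same array was the weak exception. H3024G04 read -2.93 on WT2-KO1, -1.95 on WT3-KO1, -1.91 on KO2-WT1, -3.74 on KO3-WT2 and -2.59 on KO3-WT1, but -0.57 on WT3-KO2. H3125D05 read -0.66 on WT3-KO2 and -1.60 to -2.83 on the other 5 arrays. Z3002B11 read -0.37 on WT3-KO2 and -0.53 on KO2-WT1, the 2 arrays that carry KO2, against -1.85 to -3.39 on the arrays of KO1 and KO3. In the fitted values of these 3 probes KO3 lay farthest from the WT mice, followed by KO2 and KO1. On the arrays with WT3, in contrast, each of the 3 probes was more negative with KO1 than with KO2.

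A more even set completed the 10. H3020E01 read -2.32 on WT2-KO1, -2.08 on WT3-KO1, -2.19 on WT3-KO2, -2.46 on KO2-WT1, -2.70 on KO3-WT2 and -1.90 on KO3-WT1. Its mean was -2.27 ± 0.28 (SD, n = 6 arrays), the smallest spread among the 10. H3104D07 read -1.77, -2.46, -1.53, -1.62, -2.40 and -1.67 on the same arrays in that order, a mean of -1.91 ± 0.41. H3098B03 ran from -1.33 on WT3-KO1 to -3.33 on KO3-WT2 around a mean of -2.27 ± 0.75, with the KO-first arrays (-2.58, -3.33 and -2.75) all more negative than the WT-first arrays (-1.96, -1.33 and -1.65). H3004F07 (mean -1.91 ± 0.49) and H3034H08 (mean -1.82 ± 0.46) lay between -1.17 and -2.78 throughout.

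**Figure D3:**
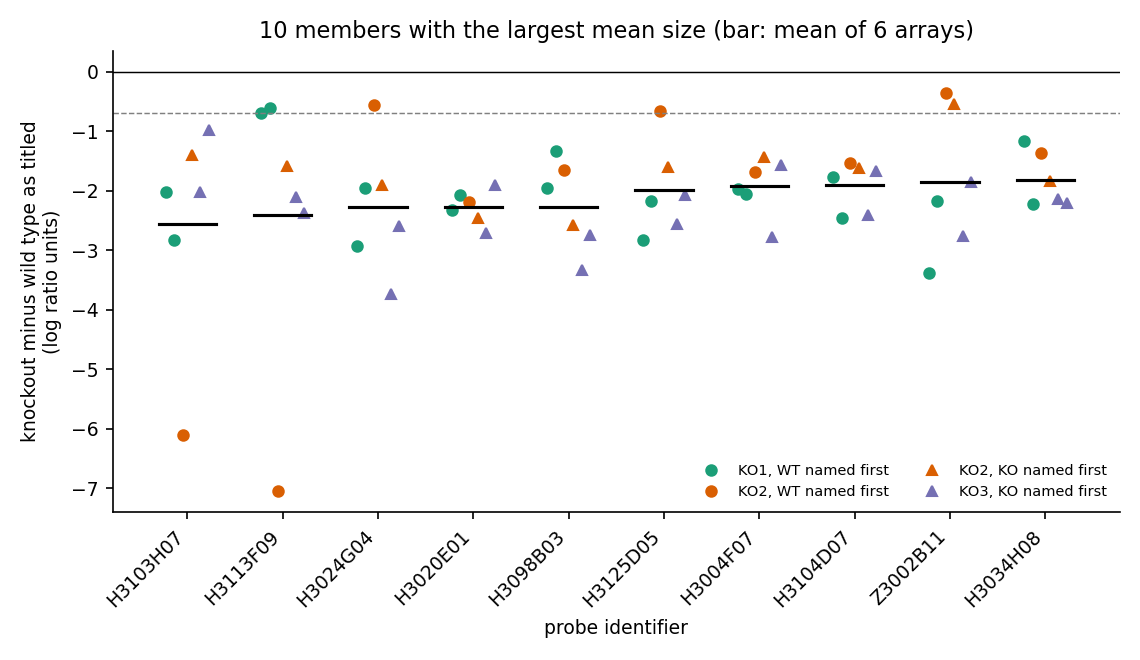
Knockout minus wild-type log ratio as titled (vertical axis) of the 10 members with the largest mean size (horizontal axis, probe identifier); points are the 6 WT-KO arrays, coloured by the KO mouse, circles with the WT and triangles with the KO mouse named first, black bars are means and the dashed line is the threshold of -0.7. H3103H07 and H3113F09 each have 1 point far from the rest, at -6.11 and -7.05 on WT3-KO2, while the points of H3020E01 lie between -2.70 and -1.90.

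The members with the smallest spread had modest means. Z3004C02 averaged -0.84 ± 0.19 (SD, n = 6 arrays), with -1.05, -1.02 and -0.82 on the WT-first and -0.52, -0.76 and -0.89 on the KO-first arrays. H3010E06 averaged -0.73 ± 0.20, H3118H03 -0.71 ± 0.20, H3133E07 -0.82 ± 0.20 and H3050E02 -0.75 ± 0.22. All 5 were nearer to the threshold than the median member. Around the threshold itself, the last probes inside were H3117F02, H3077G10 and H3155G09, with means of -0.71, -0.70 and -0.70. The first probes outside that were also below 0 on all 6 arrays were H3027F02, H3027E02 and H3109F02, with means of -0.70, -0.69 and -0.69. Those inside and outside thus differed by less than their own SDs over arrays, which ran from 0.37 to 0.63.

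The same-genotype arrays asked how far the members vary between mice when genotype is held constant. They had not entered the choice, although the RNA came from the same 6 mice. The members were far from 0 on them as well. The median size of a member's ratio, regardless of sign, was 0.67 ± 0.24 (mean and SD of 6 array medians), against 0.30 ± 0.07 for all probes. On the WT-KO arrays, where the rule made it high, the same quantity was 0.99 ± 0.26, and for all probes 0.28 ± 0.03. In 96 of 284 members the largest size of all 12 arrays lay on a same-genotype array (33.8%), against 58.2% of all probes, a share that the rule lowered by asking for large WT-KO values.

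The ratios on same-genotype arrays had a common direction. On WT1-WT3 the median member stood at 0.65, on WT2-WT3 at 0.39 and on WT1-WT2 at -0.41. On KO1-KO2 it stood at 0.67, on KO2-KO3 at 0.40 and on KO1-KO3 at 1.09. The mouse named first was thus the higher one on 5 of the 6 arrays, for 86.6% of members on WT1-WT3, 77.1% on WT2-WT3, 88.7% on KO1-KO2, 76.8% on KO2-KO3 and 81.7% on KO1-KO3, where centring sets all probes to 50%. On WT1-WT2 it was higher for 31.3%. Of the members, 150 (52.8%) lay above 0 on at least 5 of these 6 arrays, against 18.1% of all probes and 12% of the opposite side. The mean of the 6 same-genotype arrays was above 0 in 264 members (93%) and had a median of 0.41. For the 50 probes of the opposite side that median was 0.03, and 26 of them lay above 0. With WT1-WT2 turned, 184 members (64.8%) lay above 0 on at least 5 of the 6 arrays, against 18% of all probes, and the mean was above 0 in 271.

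**Figure D4:**
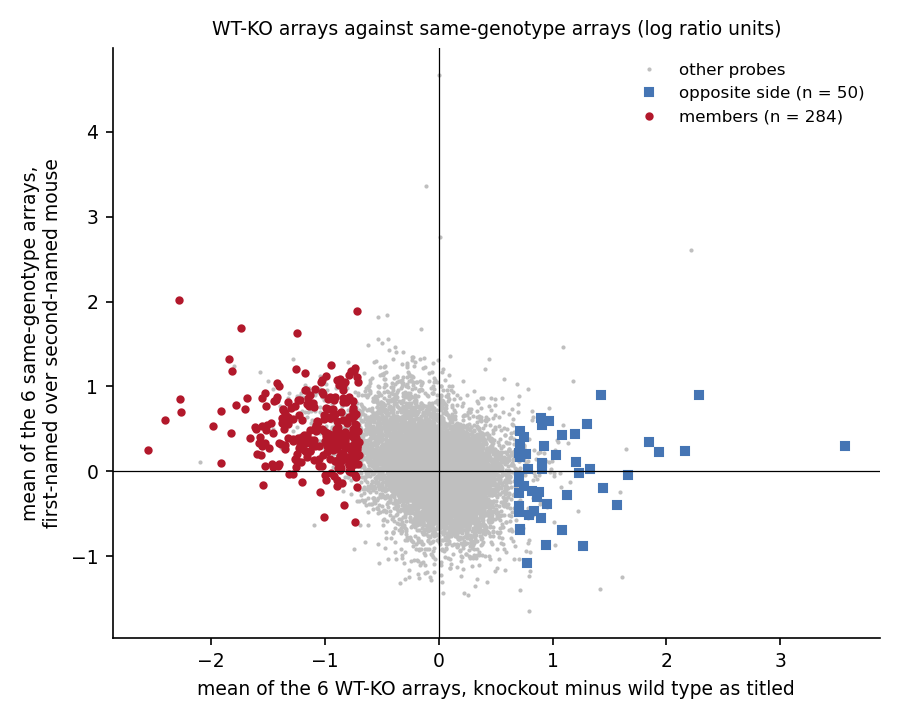
Mean of the 6 same-genotype arrays (vertical axis, first-named over second-named mouse) against the mean of the 6 WT-KO arrays (horizontal axis, knockout minus wild type as titled), in log ratio units, for each of the 15600 probes. Members (red) were chosen on the 6 arrays behind the horizontal axis, each below 0 with a mean at or below -0.7, and lie above 0 on the vertical axis in 264 of 284 cases, while the 50 probes of the opposite side (blue) lie on both sides of 0.

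The array WT1-WT2 stood apart from the other same-genotype arrays. Over all probes it correlated below 0 with each of the other 5, whereas each of those was below 0 with WT1-WT2 alone among the same-genotype arrays. Over all arrays it was below 0 with 8 of the other 11, a count that KO3-WT2 and KO3-WT1 also reached, and as low as -0.33 with WT3-KO1. No other array pairs WT1 with WT2, but some share a mouse with it. With the shared mouse on the other side of the ratio, the correlation was -0.17 with WT2-WT3, -0.28 with WT2-KO1, -0.007 with KO3-WT1 and 0.16 with KO2-WT1. With the shared mouse on the same side it was -0.29 with WT1-WT3 and 0.18 with KO3-WT2. The ratio of the same 2 mice implied by KO3-WT2 and KO3-WT1 ran the way WT1-WT2 was deposited. Over the members the medians were -0.41 measured and -0.51 implied. The correlation was 0.52 over the members, which those 2 arrays helped to choose, and 0.18 over all probes. The direction of WT1-WT2 is taken as not settled, and many results that rest on it are given with its sign turned as well. Where no turned value is given, as for the order of the KO mice and the fitted values of most named members, the result is as deposited. The sum WT1-WT2 plus WT2-WT3 minus WT1-WT3 cancels the mice and leaves the channel term. In the WT mice this sum had a median of -0.68 over the members, against -0.01 over all probes, and 0.41 over the members with WT1-WT2 turned. The corresponding sum in the KO mice, KO1-KO2 plus KO2-KO3 minus KO1-KO3, had a median of 0.01 over the members and -0.03 over all probes. How much of the members' values came from the channel or from the array WT1-WT2 was not tested. Tests of the channel term itself, and the same-genotype tests with WT1-WT2 turned, follow below.

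Differences between mice of 1 genotype were then tested on these 6 arrays alone, in a limma fit to all probes with mice within genotype and a common channel term, which leaves 1 residual degree of freedom per probe before moderation. At an adjusted p of 0.05, 0 members were called for differences among KO mice, among WT mice, for KO3 or for the channel term, and 0% of all probes were called in each. With 1 residual degree of freedom the fit had little power to reach that threshold, so the 0 says nothing on whether mice differed. An unadjusted p under 0.05 for the 3 KO mice was reached by 108 members (38%), against 10.8% of all probes and 40% of the opposite side. For the 3 WT mice it was reached by 98 members (34.5%), against 4.96% of all probes and 10% of the opposite side. Moderation draws each probe's error towards a value shared over all probes. Whether that raised the share of the members, whose ratios were larger than those of all probes, was not tested. With arrays scaled to a common spread the 108 fell to 33 members (11.6%), where 4.96% of all probes were called. The 98 became 82 with that scaling (28.9%, against 4.97% of all probes).

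KO3 was compared with KO1 and KO2 in the same fit. The median member's estimate for KO3 was -1.09 relative to the mean of the other 2 KO mice, against -0.03 over all probes and 0.19 for the opposite side. With WT1-WT2 turned, which reaches KO3 through the common channel term, it was -0.51, against -0.04 over all probes. At an unadjusted p under 0.05 there were 114 members (40.1%), against 11.5% of all probes. Of the 114, 110 were negative, where 6.01% of all probes were called in that direction, and 4 were positive, where 5.49% of all probes were. With arrays scaled the 114 fell to 43 (15.1%, against 5.99% of all probes). The channel term had an unadjusted p under 0.05 in 37 members (13%), against 3.8% of all probes, and in 18 with arrays scaled (2.67% of all probes). As deposited it was negative in 29 of the 37, where 1.8% of all probes were called, and positive in 8, where 2% were. That balance turned under other settings: the term was positive in 33 of 51 members with WT1-WT2 turned (2.98% of all probes), in 51 of 54 with all 12 arrays (10.5%) and in 11 of 18 with arrays scaled (1.55%). No direction is therefore given for it.

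These calls moved with the array WT1-WT2 and with the arrays included. With WT1-WT2 turned, limma called 17 members for KO mice at an adjusted p of 0.05, where 1.56% of all probes were called, 18 for KO3 (2.22%), 0 for WT mice (0.0128%) and 0 for the channel term (0%). At an unadjusted p under 0.05 the counts were then 100 for KO mice (15.5% of all probes), 82 for WT mice (6.95%), 83 for KO3 (13.7%) and 51 for the channel term (7.15%). With all 12 arrays, which include those of the rule, the adjusted counts were 12 for KO mice (1.85% of all probes), 0 for WT mice (0.00641%), 18 for KO3 (3.44%) and 2 for the channel term (0.327%). At an unadjusted p under 0.05 the counts with all 12 arrays were 98 for KO mice (34.5%, against 15.5% of all probes), 78 for WT mice (27.5%, against 5.42%), 94 for KO3 (33.1%, against 16.5%) and 54 for the channel term (19%, against 19%). The members' share at an unadjusted p thus exceeded that of all probes in each of the 4 tests on the same-genotype arrays, with WT1-WT2 read either way. Without KO1-KO3 and the channel term, the share was 17.6% for KO mice (14.2% of all probes) and 19% for KO3 (15.4%). The counts with all 12 arrays are printed for scale only and nothing is read from them.

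Named members show what these counts hold. Z3001C07 had the smallest p for the KO mice, the WT mice, KO3 and the channel term alike, with WT1-WT2 as deposited and turned. It read 4.19 on KO1-KO3, 1.83 on KO1-KO2 and close to 0 on KO2-KO3, and 3.22 on WT1-WT3, 0.55 on WT1-WT2 and 0.38 on WT2-WT3. Its WT-KO values ran from -1.03 to -2.44, so its largest same-genotype ratios exceeded each of them. H3019D01 read 4.03 on KO1-KO3 and 1.74 on KO1-KO2 with WT-KO values of -0.30 to -1.80. H3032C01 read 3.72 on KO1-KO3 and -2.37 on WT1-WT2 with WT-KO values of -0.60 to -1.89. H3015E03 and H3067E01 read 4.50 and 4.22 on KO1-KO3, and their WT-KO means were -0.77 and -0.72. In Z3003A12 the array KO1-KO3 gave 3.18 and WT1-WT3 gave 2.80. The estimate for KO3 against KO1 and KO2 was -4.42 (SE 0.55) in Z3001C07, -3.94 (SE 0.55) in H3019D01, -4.88 (SE 0.62) in H3032C01, -4.34 (SE 0.71) in H3015E03 and -4.76 (SE 0.80) in H3067E01, with arrays as the only source of error. With WT1-WT2 turned the same estimates were -4.97, -2.52, -2.52, -3.29 and -4.37, so those of H3019D01 and H3032C01 moved by over 1.5 times.

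Of the other members named for the WT mice, 3 were highest in WT2 as deposited. H3052H04 read -2.40 on WT1-WT2 and 1.60 on WT2-WT3, H3090A09 read -1.18 and 2.84, and H3099G09 read -2.07 and 1.88. Their fitted values were 1.56, 2.11 and 1.74 in WT2, against -0.31 to 0.48 in WT1 and WT3. With WT1-WT2 turned they became 0.56, 1.62 and 0.87 in WT2 and 0.77, 0.97 and 0.68 in WT1, so that WT1 exceeded WT2 in H3052H04. On the WT-KO arrays the same probes were most negative where WT2 was the partner, with -2.17 on KO3-WT2 in H3052H04, -4.06 in H3090A09 and -2.66 in H3099G09. On the arrays of WT1 and WT3 they lay between -0.03 and -1.38. On WT2-KO1 they read -1.12, -2.08 and -1.68, so both arrays that carry WT2 were the most negative of the 6 in each of these probes. With WT1-WT2 turned these 3 ranked 222, 99 and 176 of the 284 members by the p for the WT mice, against 2, 3 and 4 as deposited. As deposited the channel term had its smallest p values in Z3001C07, H3032C01, H3075F08, H3027G09 and H3103H07, at -2.32, -2.35, -2.03, -2.40 and -1.68. With WT1-WT2 turned it was -2.87, 0.01, -0.13, -1.04 and 0.59 in the same probes, so only Z3001C07 stayed among the first 5.

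At the other end, 5 members had a larger size on each of the 6 WT-KO arrays than on any of the 6 same-genotype arrays, which held for 0.0321% of all probes on the negative side and 0.0769% on either side. As the rule fixed 1 side of this comparison, it is a description, and the 5 were singled out after their values were seen. H3104D07 lay at 1.53 or more in size on the WT-KO arrays, and its same-genotype ratios were 0.28, -0.09 and 0.85 on WT1-WT3, WT1-WT2 and WT2-WT3 and -0.70, -0.08 and 0.35 on KO2-KO3, KO1-KO3 and KO1-KO2. H3020E01 reached 1.59 at most on a same-genotype array against 1.90 at least on a WT-KO array. H3098B03 reached 1.10 against 1.33. H3039E07 (mean -1.10 ± 0.31) reached 0.57 against 0.71, and H3010E06 (mean -0.73 ± 0.20) reached 0.49 against 0.54.

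The fitted mouse values of these 5 did not overlap between genotypes, as in 74.6% of members and 7.76% of all probes. The fit used the arrays by which the 5 were singled out, so this is a description and nothing is read from it. In H3104D07 the KO mice were at -0.97, -1.09 and -0.81 and the WT mice at 0.89, 1.24 and 0.73. In H3039E07 the KO mice were at -0.46, -0.56 and -0.62 and the WT mice at 0.75, 0.39 and 0.50. In H3010E06 they were at -0.32, -0.28 and -0.50 against 0.43, 0.35 and 0.31. KO3 was thus the lowest KO mouse in H3039E07 and H3010E06 and the highest in H3104D07.

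**Figure D5:**
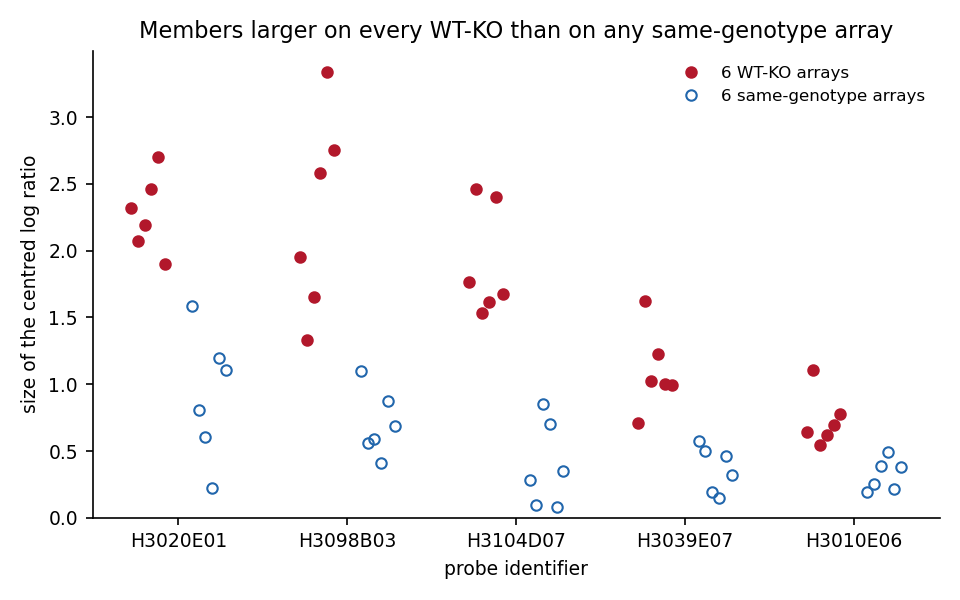
Size of the centred log ratio (vertical axis) of the 5 members that were larger on every WT-KO array than on any same-genotype array (horizontal axis, probe identifier); filled red points are the 6 WT-KO arrays and open blue points the 6 same-genotype arrays. The gap is widest for H3104D07, from 0.85 to 1.53, and narrowest for H3010E06, from 0.49 to 0.54.

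Each same-genotype array also closes a triangle with 2 WT-KO arrays that share a mouse of the other genotype, so that its ratio can be set against the one they imply. Across the 284 members, measured and implied ratios correlated at 0.52 on WT1-WT2, 0.38 on KO2-KO3, 0.33 on WT2-WT3 and 0.18 on WT1-WT3, and at -0.04 on KO1-KO3 and -0.15 on KO1-KO2. Over all probes the values were 0.18, 0.29, 0.02, 0.07, -0.10 and -0.22 in that order. The mean of the 6 values over the members was 0.205, and 0.0312 with WT1-WT2 turned, where the 0.52 changes sign. These are correlations across probes that share arrays and mice. A channel term common to all arrays stays in each measured ratio. In the implied ratios it cancels, except in those of WT1-WT3 and KO1-KO3. The median member was implied to differ by 0.44 on KO1-KO3, where 1.09 was measured, and by -0.30 on KO1-KO2, where 0.67 was measured. The pair of arrays that link KO1 and KO2 through WT3 thus placed KO1 below KO2 for the median member, and the array KO1-KO2 placed it above.

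The identifiers were read as a plate block (the first 5 characters), a row and a column. The members were scattered over them. They lay in 132 of 163 blocks, with 8 in block H3027, 6 each in H3010 and H3096, and 5 each in H3019, H3028 and H3080. Of the members 277 had the prefix H3 and 7 the prefix Z3 (2.46%, against 2.15% of all probes). Rows held 26 (row G) to 49 (row E) members each and columns 16 (column 12) to 30.

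Members in neighbouring wells of a block formed 12 pairs with 22 members among them. How many such pairs an equal number of randomly placed probes would form was not computed, so nothing is read from this count. H3130B10 and H3130B11 had means of -1.22 and -1.20, but H3130B11 read -0.05 and -0.23 on the arrays with KO2, where H3130B10 read -0.76 and -1.80. H3028A04 and H3028A05, both with a mean of -1.17, were alike on the same-genotype arrays, with 1.28 and 2.00 on WT1-WT3, -1.35 and -1.91 on WT1-WT2 and 2.24 and 2.53 on KO1-KO3. H3084D05 and H3084E05 had means of -1.52 and -0.73 and read 0.89 and -3.53 on KO1-KO3. H3027E07 and H3027E08 had means of -1.09 and -0.97 and read 2.36 and -0.27 there, and H3144B03 and H3144B04 had means of -1.01 and -0.90 and read 1.05 and 0.08. On KO1-KO3 the pair in block H3028 was thus the closest of these 5 pairs.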

How the data were processed

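The members and the measures described were chosen with earlier results of these data known. The deposited table holds 1 signed log ratio (treated as log2) per probe for each of 12 arrays and 15600 probes. How the authors scanned, corrected and normalized the arrays, the dyes, the log base and the ratio's direction are not given in the sources used here. Intensities were not used here, and precision is limited by the number of arrays. No value was missing (0). Deposited medians of arrays lay between -0.047 and 0.040 and were subtracted.

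Mouse values were fitted by least squares to the 12 arrays with a channel term. Tests used limma 3.58.1 (lmFit, eBayes) in R 4.3.3 over all probes with Benjamini-Hochberg adjustment. On data simulated with a KO3 shift in 200 probes, the KO3 test on the 6 same-genotype arrays made no adjusted call, right or wrong, so adjusted counts there show little. The simulated shifts were smaller than the KO3 estimates of the 5 members named for that test, and power at those sizes was not tested. P-values over mice measure the spread between these 6 mice, and those on same-genotype arrays measure array error only, since each mouse is 1 animal. Named probes were the 10 members of largest mean size, the 5 of smallest SD, the 5 of smallest p in each same-genotype test, 3 on each side of the threshold, and 5 pairs in neighbouring wells. The 5 members clear of the same-genotype arrays were added after their values were seen. Alternatives (no centring, arrays scaled to a common spread, mice or arrays left out, other thresholds, no channel term, all 12 arrays, robust moderation, a block, 1 array turned) are given in the closing section. Gene names matched 0 identifiers in the RefSeq table of GRCm38.p6.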

Additional observations from a re-analysis of the deposited data

Results flagged for a closer look

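Over the named probes and the array medians, 88 groups of 6 arrays were examined for a value far from the others, which chance gives in about 1 of 20 groups, and 4 were found. On WT3-KO2, H3103H07 read -6.11 with the next value at -2.82, and H3113F09 read -7.05 with the next at -2.38. On WT2-KO1, H3084D05 read -2.49 with the next at -1.49. On WT1-WT2, H3130B11 read -2.40, while its lowest other same-genotype ratio was 0.81.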

How the results depend on the processing

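The count of 284 members became 264 to 590 without a mouse or an array (590 without KO2, 581 without WT3, 466 without KO1, 435 without WT1 and also without the array WT3-KO2), 439 with a mean at or below -0.5, 133 at or below -1 and 454 with 5 of 6 arrays below 0. Of the 284, 215 met the rule without KO3, the lowest of the mice left out, and 263 without KO2. The members' median difference was -1.09 to -0.88 without centring, with arrays scaled and without a mouse or an array. The count of 254 over mice, which the rule fixed, was 161 to 228 without a mouse (6.38% to 10.7% of all probes). It was 264 with WT1-WT2 turned (10.2% of all probes), where limma also called 2 members at an adjusted p of 0.05 (0.0128%). With the replicate block by mouse number it was 262 (8.23% of all probes). That number does not pair the mice (same-numbered mice correlated at -0.08, -0.24 and -0.04 in their deviations from the genotype means). On same-genotype arrays the count of 0 adjusted calls became 12 among KO mice, 18 for KO3 and 2 for the channel term with all 12 arrays, which include those of the rule. It became 17 and 18 for KO mice and KO3 with WT1-WT2 turned. Without 1 array and without the channel term, which are needed together to leave an error term, it was 0 to 30 and 0 to 34. The higher values came without a WT array, where 1.36% and 2.92% of all probes were called. For WT mice the count was 0 in each alternative run. Unadjusted, the 108 among KO mice became 33 with arrays scaled (11.6%, against 4.96% of all probes). Without an array it ran from 50 without KO1-KO3 (17.6%, against 14.2%) to 156 (54.9%, against 18.8%). The 114 for KO3 became 43 with arrays scaled (15.1%, against 5.99%). Without an array it ran from 54 without KO1-KO3 (19%, against 15.4%) to 145 (51.1%, against 20.5%), with 60 without KO2-KO3 (21.1%, against 14.4%). Without KO1-KO3 the members' share was thus little above that of all probes. The 37 for the channel term became 18 with arrays scaled (6.34%, against 2.67%). The cause was not tested. Turning WT1-WT2, the unadjusted counts and the alternatives for named probes were added after the data were seen. All 602 alternative means of the 43 named probes kept their sign and stayed within 1 SD over arrays, a wide margin. Each of these probes lay below 0 on all 6 arrays, so leaving out arrays or a mouse could not turn the sign. Nor could it move a mean by 1 SD of the same 6 values, so nothing is read from either result. Of the 602 means, 20, in 14 probes, moved by over 1.5 times. Without WT2, H3052H04 went from -0.73 to -0.27, H3090A09 from -1.51 to -0.74 and H3099G09 from -1.10 to -0.56, and without WT3 H3067E01 went from -0.72 to -0.34.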
